A study of Mus musculus with 15 samples.

Results

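Transcripts of 7 genes of the major histocompatibility complex (MHC) class II pathway were followed in the mouse optic nerve. The genes were taken by name from the deposited expression table: H2-Aa, H2-Ab1, H2-Eb1, H2-DMa, H2-DMb1, Cd74 and Ciita, 7 of its 14237 genes, and all 7 passed the filter on low counts. A gene is in that table only if its FPKM, the count scaled for depth and gene length, was at least 1 in 4 or more libraries of some group. H2-Aa, H2-Ab1, H2-Eb1, H2-DMa, H2-DMb1 and Cd74 reached it in all 15 libraries. Ciita reached it in 4 of 5 crush AAV-CNTF, 1 of 5 crush AAV-null and 0 of 5 sham libraries, so it was listed through the AAV-CNTF group alone, and a higher value there was in part a condition of being listed. Class II molecules are pairs of an alpha and a beta chain that hold peptides from endocytosed protein on the cell surface, where CD4 T cells read them. H2-Aa encodes the alpha chain of the I-A molecule, H2-Ab1 its beta chain, and H2-Eb1 the beta chain of the I-E molecule. C57BL/6 mice lack a functional I-E alpha chain, so I-E is not displayed in this strain. Cd74 encodes the invariant chain, which guides new class II molecules to the endosome and blocks their groove. H2-DMa and H2-DMb1 encode the chains of H2-DM, which exchanges the remnant of the invariant chain for peptide. Ciita encodes the coactivator that switches the class II genes on and is itself induced by interferon gamma in many cell types. In nervous tissue at rest class II is low, and microglia, macrophages of the borders and dendritic cells are its usual sources.

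The nerves came from adult C57BL/6J mice whose eyes had received AAV2, a gene delivery virus, into the vitreous. The virus was a control without a factor (AAV-null) or carried a secretable ciliary neurotrophic factor, CNTF, a cytokine that signals through STAT3 (AAV-CNTF). There were 3 groups, each of 5 biological replicates that the labels number 2 to 6. A sham group with AAV-null was set beside 2 crush groups, 1 with AAV-null and 1 with AAV-CNTF. Crush followed injection by 2 weeks and the nerve was taken 7 days after crush. The sources used here do not give the times of the sham group or the promoter of the vector, and there was no sham group with AAV-CNTF among the samples analysed. Library totals over the listed genes ran from 19856688 to 29558293 expected counts. Mbp, the myelin basic protein gene of oligodendrocytes, stood at 30119 ± 2964 CPM, the count after scaling for library size, in sham, 13051 ± 2229 in crush AAV-null and 11126.5 ± 1898 in crush AAV-CNTF nerves (SD, n = 5 each). Crush AAV-null replicate 6 had 3.18% of the listed genes at 0, against 0.98% to 2.32% in the other libraries, and results were also computed without it. RNA was measured in whole nerve, where fewer cells of a type and less RNA per cell cannot be told apart.

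Of the 7 genes, 5 lie on chromosome 17 (mm10, GENCODE M21 positions). In order these are H2-DMa at 34119541 to 34139101, H2-DMb1 at 34153072 to 34160230, H2-Ab1 at 34257689 to 34269419, H2-Aa at 34282744 to 34287823 on the minus strand, and H2-Eb1 at 34305867 to 34316674. Class II promoters are known for an X box and a Y box, bound by the RFX and NF-Y complexes on which the Ciita protein assembles. RefSeq promoter sequences of GRCm38.p6 (250 bases before to 50 after each start site) held 4 of the 7 genes, H2-Aa, H2-Eb1, H2-DMa and H2-DMb1. The stretches from 120 to 31 bases before the start site of H2-Aa (chr17:34287854-34287943, minus strand) and H2-Eb1 (chr17:34305747-34305836, plus strand) are shown, because for these genes the RefSeq start site is also the GENCODE gene start. For H2-DMa and H2-DMb1 the RefSeq starts lie inside the GENCODE gene, and their sequences are not shown. Capitals mark the X box core AACNGATG and the Y box core ATTGG on either strand.
H2-Aa: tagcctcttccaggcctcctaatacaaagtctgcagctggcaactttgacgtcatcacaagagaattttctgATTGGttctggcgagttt
H2-Eb1: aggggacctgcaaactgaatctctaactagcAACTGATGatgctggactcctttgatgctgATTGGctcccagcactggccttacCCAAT

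H2-Eb1 held the X core 89 bases before its start site and the Y core 59 bases before it, 22 bases apart. H2-DMb1 held the same cores 92 and 61 bases before its RefSeq start, 23 apart, and H2-DMa a Y core 198 bases before 1 of its RefSeq starts, without the X core letters. H2-Aa held a Y core 48 bases before its start, and the X core letters were not in its window. Of 32851 RefSeq promoters searched on both strands, 2.32% held the X core, 37.4% the Y core and 0.0183%, or 6 promoters, an X core followed by a Y core 15 to 30 bases on. Those 6 were H2-Eb1, H2-DMb1, H2-Eb2, H2-DMb2, BC051142 and Gm35697. The core letters and the spacing were chosen with the class II promoters in view, so the count is a description of these sequences.

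Away from that cluster, Ciita lies on chromosome 16, at 10480059 to 10528418, and Cd74 on chromosome 18, at 60803848 to 60812652. Levels were compared between genes as FPKM, which divides by gene length. In sham nerves Cd74 was the most abundant at 109 ± 41.8 FPKM, followed by H2-Ab1 at 28.5 ± 5.52, H2-Eb1 at 22.4 ± 7.52, H2-Aa at 19.6 ± 6.91, H2-DMa at 12.3 ± 2.07, H2-DMb1 at 5.91 ± 1.59 and Ciita at 0.376 ± 0.0896 (SD, n = 5 each). The order of the 3 chains was not firm in sham, where H2-Ab1 exceeded H2-Eb1 and H2-Eb1 exceeded H2-Aa in 4 of 5 libraries each. In crush AAV-null nerves H2-Eb1, at 39.5 ± 7.16 FPKM, exceeded H2-DMa, at 34.99 ± 9.98, in only 3 of 5 libraries. In crush AAV-CNTF nerves every step of the order Cd74, H2-Ab1, H2-Aa, H2-Eb1, H2-DMa, H2-DMb1 and Ciita held in 5 of 5 libraries. Cd74 stood 2.45 to 6.24 times above H2-Ab1 in FPKM across the 15 libraries. Together the 7 genes took 0.0167% to 0.0313% of the listed counts in sham, 0.0315% to 0.0449% in crush AAV-null and 0.0361% to 0.333% in crush AAV-CNTF libraries.

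**Figure D1:**
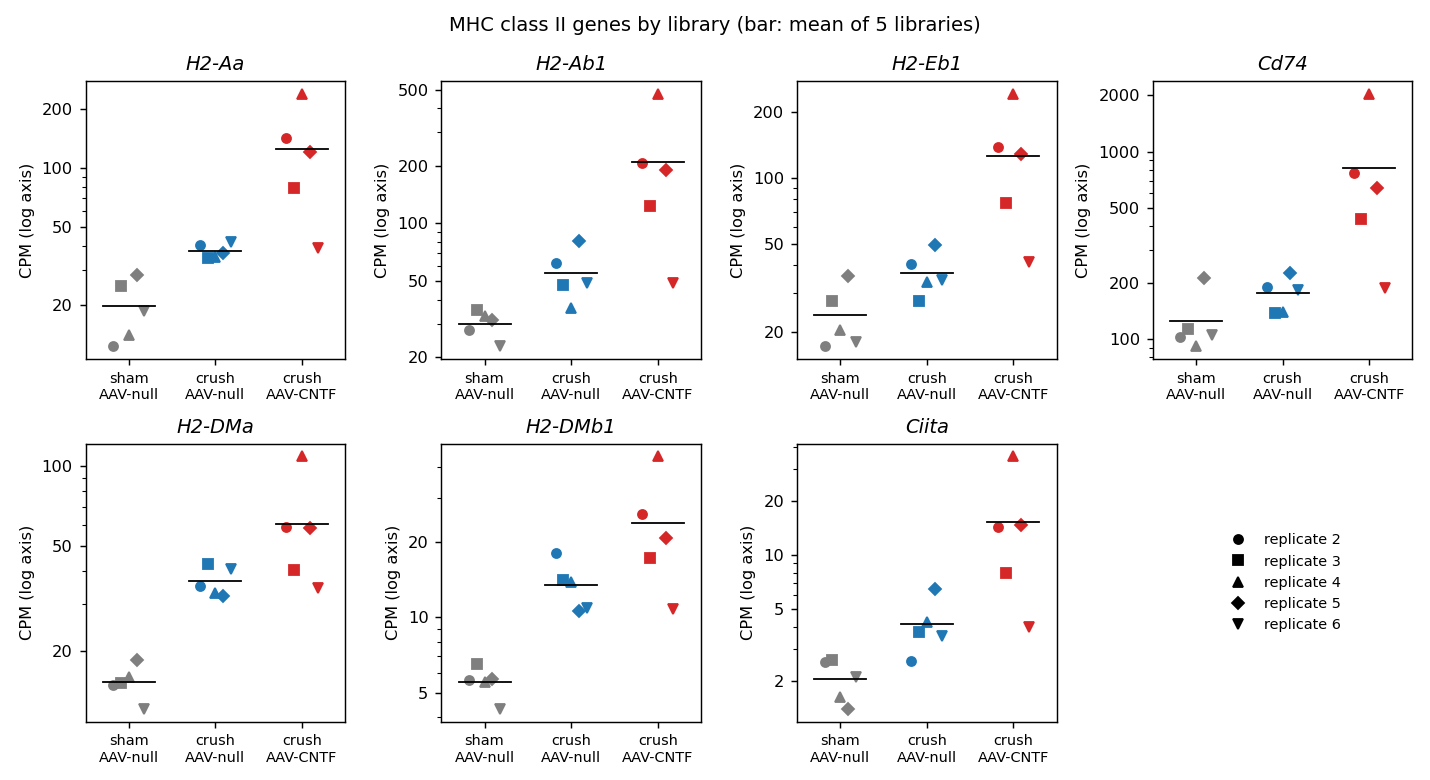
Level of each class II gene in every library, in CPM on a log axis, by group; points are libraries, marker shapes give the replicate number and the bar is the mean of 5. For each of the 7 genes crush AAV-CNTF replicate 4 is the highest library, and crush AAV-CNTF replicate 6 lies within the range of the crush AAV-null libraries.

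The effect of the injury alone was read from the AAV-null nerves, crushed against sham. Both H2-DM chains rose, H2-DMa by 2.40-fold and H2-DMb1 by 2.45-fold, and H2-Aa rose by 1.93-fold. H2-Ab1, H2-Eb1, Cd74 and Ciita did not pass the test. The test was edgeR's quasi-likelihood test, adjusted by Benjamini-Hochberg over 14194 genes. It called 3 of the 7 higher and 0 lower, where 14.7% of all genes tested were higher and 12.9% lower. In 4 of the 7, H2-Aa, H2-Ab1, H2-DMa and H2-DMb1, every crush library lay above every sham library, which 10.5% of all genes did. The median log2 fold change of the 7 was 0.95 (0.92 without Ciita), beside 0.005 for all genes.

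H2-DMa, the alpha chain of the peptide exchanger, stood at 14.9, 15.2, 16.0, 18.6 and 12.1 CPM in sham replicates 2 to 6. In crush AAV-null replicates 2 to 6 it stood at 35.4, 42.6, 33.2, 32.3 and 40.7 CPM. The groups were far apart, with little spread inside either, and the log2 fold change was 1.26 ± 0.23 (SE; edgeR, adjusted p = 0.00026). H2-DMb1, its beta chain, stood at 5.64, 6.51, 5.49, 5.68 and 4.29 CPM in sham and at 18.1, 14.1, 13.8, 10.7 and 10.9 CPM after crush. These groups did not overlap either, and the log2 fold change was 1.29 ± 0.29 (SE; edgeR, adjusted p = 0.00189). H2-DMb1 has a close copy, H2-DMb2, whose longest coding transcript is 94.6% identical over 1219 aligned bases. In 7 libraries the H2-DMb1 count was not whole (tolerance 0.02), and in all 7 the sum of the copies was, so reads were shared out between them. H2-DMb1 took 74.2% to 98.9% of the reads of the pair, and its values are uncertain where reads were shared. The other 6 genes had whole counts in every library.

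H2-Aa, the I-A alpha chain, stood at 12.3, 25.1, 14.0, 28.5 and 18.5 CPM in sham replicates 2 to 6 and at 40.5, 34.8, 35.1, 36.9 and 41.8 CPM in crush AAV-null replicates 2 to 6. The crush libraries were close together and all above sham, and the sham libraries spread 2.32-fold. The log2 fold change was 0.95 ± 0.32 (SE; edgeR, adjusted p = 0.0324). With 1 library left out H2-Aa passed in 4 of 10 fits (edgeR adjusted p 0.0209 to 0.0866), and with limma-voom and sample quality weights its adjusted p was 0.118. H2-Ab1, its beta chain partner, stood at 27.8, 35.2, 32.7, 31.4 and 22.8 CPM in sham and at 61.9, 47.7, 36.3, 80.7 and 48.6 CPM after crush. All crush libraries again lay above all sham libraries, crush replicate 4 narrowly so, and the log2 fold change was 0.88 ± 0.37 (SE; edgeR, adjusted p = 0.0839). Fitted on these 10 libraries alone, H2-Ab1 passed (edgeR adjusted p = 0.00202). In that fit 5 of the 7 were higher, with H2-Eb1 the other addition, where 13.8% of all genes were.

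H2-Eb1 stood at 17.2, 27.6, 20.3, 35.9 and 17.9 CPM in sham and at 40.7, 27.7, 33.6, 49.3 and 34.4 CPM after crush. The groups overlapped through sham replicate 5, and the log2 fold change was 0.64 ± 0.32 (SE; edgeR, adjusted p = 0.151, and 0.0331 on these 10 libraries alone). Cd74 stood at 102, 114, 91.3, 211 and 105 CPM in sham replicates 2 to 6 and at 189, 138, 139, 226 and 183 CPM after crush. Sham replicate 5 stood above 4 of the 5 crush libraries, the other 4 sham libraries lay below them all, and the log2 fold change was 0.49 ± 0.40 (SE; edgeR, adjusted p = 0.402). Without sham replicate 5 the Cd74 value was 0.76 (edgeR adjusted p = 0.196), and the 3 calls were kept with none gained. Ciita was a low transcript, at 2.55, 2.63, 1.63, 1.39 and 2.10 CPM in sham (26 to 57 counts) and 2.59, 3.73, 4.27, 6.45 and 3.55 CPM after crush (53 to 143 counts). Only crush replicate 2 fell within the sham range, and the log2 fold change was 1.00 ± 0.45 (SE; edgeR, adjusted p = 0.11). Here the authors' deposited table gave 5 of the 7 genes an adjusted p under 0.05 and a positive log2 fold change, with H2-Ab1 at 0.000318 and H2-Eb1 at 0.0359 beside the 3 above, where 14.1% of genes did.

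Phagocyte transcripts moved with this comparison. All 10 genes of the phagocyte list rose, among them Cd68, Lyz2 and Tyrobp, and their summed level went from 715 to 1047 CPM in sham to 2606 to 3835 CPM in crush AAV-null libraries. The leukocyte list rose in 6 of 6 and the microglia list in 7 of 10 with 1 lower, Sall1. Of the genes of border-associated macrophages 4 of 9 rose and 0 fell, and the list summed to 49.2 to 63.4 CPM in sham and 174 to 433 CPM after crush. Most of the sum after crush was Stab1, which went from 23.4 ± 4.08 to 209 ± 81.4 CPM (SD, n = 5 each). Mrc1, Lyve1, F13a1, Cbr2 and Folr2 of this list did not pass by edgeR. Of the monocyte genes 3 of 6 rose, and of the dendritic cell genes 2 of 8, Itgax and Cd24a. Their part in the change of the class II genes was not tested. As a ratio within each library, H2-Aa, H2-Ab1 and H2-Eb1 summed over the 10 phagocyte genes summed (FPKM) stood at 0.0952, 0.158, 0.0825, 0.177 and 0.112 in sham replicates 2 to 6. In crush AAV-null replicates 2 to 6 the ratio stood at 0.0508, 0.0309, 0.0460, 0.0624 and 0.0478. Every crush AAV-null library was below every sham library, with less class II chain transcript per summed phagocyte transcript. The summed genes rose unequally, Lyz2 by 10.5-fold and Cd68 by 9.47-fold but Csf1r by 1.97-fold and Ctss by 2.33-fold. Csf1r rose about as much as H2-Aa (1.93-fold), so such a ratio depends on which phagocyte genes are used. The ratio of the H2-DM genes to the phagocyte genes ran from 0.0249 to 0.0408 in sham and from 0.0119 to 0.0210 in crush AAV-null libraries, again without overlap.

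**Figure D2:**
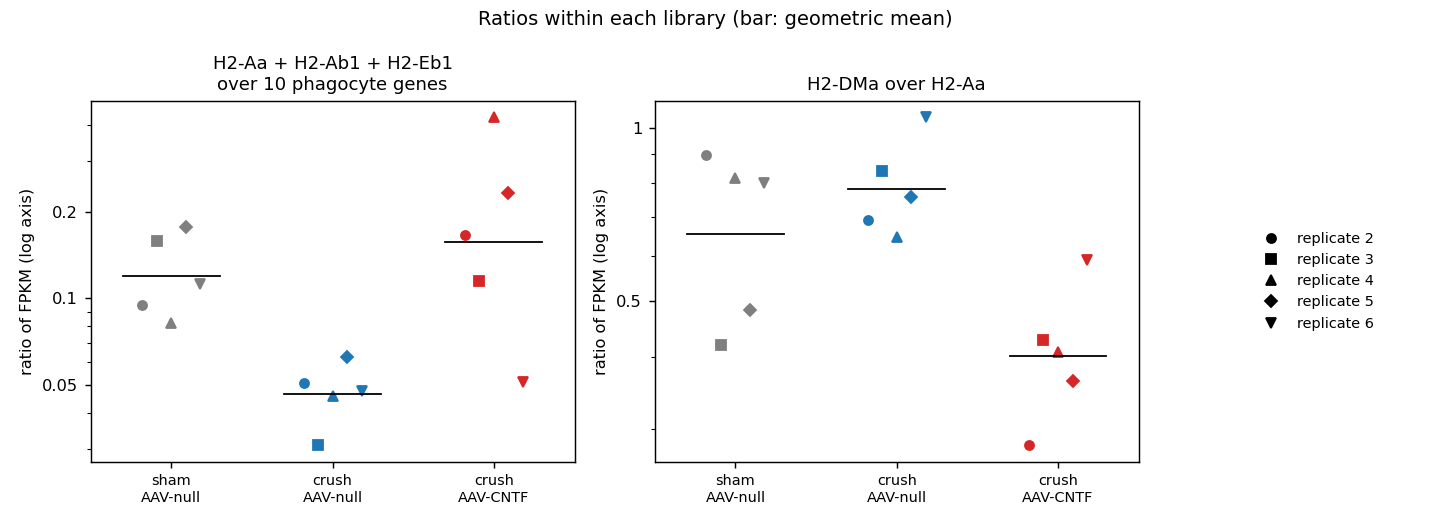
Ratios of FPKM within each library, on log axes; left, the summed class II chains over 10 summed phagocyte genes, and right, H2-DMa over H2-Aa; points are libraries and the bar is the geometric mean of 5. On the left the crush AAV-null libraries (0.0309 to 0.0624) lie below all sham libraries, and on the right the crush AAV-CNTF libraries (0.281 to 0.590) lie below all crush AAV-null libraries. The separation on the right holds in FPKM and not in CPM.

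The second comparison, AAV-CNTF against AAV-null in crushed nerves, asks what CNTF expression in the eye added. Cd74 was 4.65-fold and H2-Eb1 3.37-fold higher with AAV-CNTF, and both passed the test narrowly. H2-Ab1 was 3.80-fold, Ciita 3.71-fold and H2-Aa 3.29-fold higher on average without passing, and H2-DMb1 (1.76-fold) and H2-DMa (1.63-fold) differed least. By edgeR's quasi-likelihood test 2 of the 7 were higher and 0 lower, where 0.0423% of all genes tested were higher, 6 genes in all, and 0.0141%, or 2 genes, lower. Unadjusted p was under 0.05 for 1091 genes, all 7 class II genes among them. In none of the 7 did the groups separate fully, as they did with every AAV-CNTF library higher in 0.838% of all genes, and AAV-CNTF replicate 6 stayed within the AAV-null range for each gene. The median log2 fold change of the 7 was 1.75, beside -0.003 for all genes. Without Ciita, which was listed through the AAV-CNTF group alone, 2 of 6 passed and the median was 1.74.

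Cd74 stood at 766, 439, 2039, 641 and 187 CPM in crush AAV-CNTF replicates 2 to 6, set against 138 to 226 CPM with AAV-null. Replicates 2 to 5 were all above the AAV-null libraries, replicate 4 by the widest margin, and replicate 6 was among them. The log2 fold change was 2.22 ± 0.41 (SE; edgeR, adjusted p = 0.0473). H2-Eb1 stood at 138.5, 76.7, 241, 128 and 41.5 CPM with AAV-CNTF, against 27.7 to 49.3 CPM with AAV-null. The same 4 libraries lay above the AAV-null range, and the log2 fold change was 1.75 ± 0.32 (SE; edgeR, adjusted p = 0.0473).

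H2-Aa stood at 143, 79.4, 239.9, 121 and 39.0 CPM with AAV-CNTF, against 34.8 to 41.8 CPM. The log2 fold change was 1.72 ± 0.32 (SE; edgeR, adjusted p = 0.0506), just short of the threshold. H2-Ab1 stood at 207, 124, 476, 191 and 48.8 CPM, against 36.3 to 80.7 CPM, with a log2 fold change of 1.93 ± 0.37 (SE; edgeR, adjusted p = 0.0529). In both, 4 of 5 AAV-CNTF libraries were above the highest AAV-null library. Ciita, the coactivator, stood at 14.3, 7.97, 35.4, 14.7 and 3.99 CPM, against 2.59 to 6.45 CPM. Its libraries kept the order of the Cd74 libraries at both ends, replicate 4 highest and replicate 6 lowest, and the log2 fold change was 1.89 ± 0.45 (SE; edgeR, adjusted p = 0.129). Since it was listed for its level in this group, the sign of that difference is no support.

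H2-DMa stood at 58.7, 40.4, 108, 58.0 and 34.7 CPM with AAV-CNTF, against 32.3 to 42.6 CPM. Replicates 2, 4 and 5 were above the AAV-null range and replicates 3 and 6 within it, and the log2 fold change was 0.71 ± 0.23 (SE; edgeR, adjusted p = 0.345). H2-DMb1 stood at 26.0, 17.3, 44.1, 20.9 and 10.8 CPM, against 10.7 to 18.1 CPM, with the same 3 libraries above the range and a log2 fold change of 0.82 ± 0.28 (SE; edgeR, adjusted p = 0.424). Within each library H2-DMa over H2-Aa (FPKM) stood at 0.281, 0.429, 0.408, 0.363 and 0.590 with AAV-CNTF and at 0.692, 0.840, 0.646, 0.757 and 1.04 with AAV-null. In FPKM all 5 AAV-CNTF libraries, replicate 6 included, had less H2-DMa per H2-Aa than any AAV-null library. In CPM the groups overlapped at AAV-CNTF replicate 6. There H2-DMa and H2-Aa stood at 34.7 and 39.0 CPM, against 35.4 and 40.5 CPM in AAV-null replicate 2. In sham the FPKM ratio spread from 0.421 to 0.897 across both ranges. Cd74 over H2-Ab1, in contrast, ran from 2.90 to 3.65 with AAV-CNTF and from 2.45 to 3.59 with AAV-null, which overlap.

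**Figure D3:**
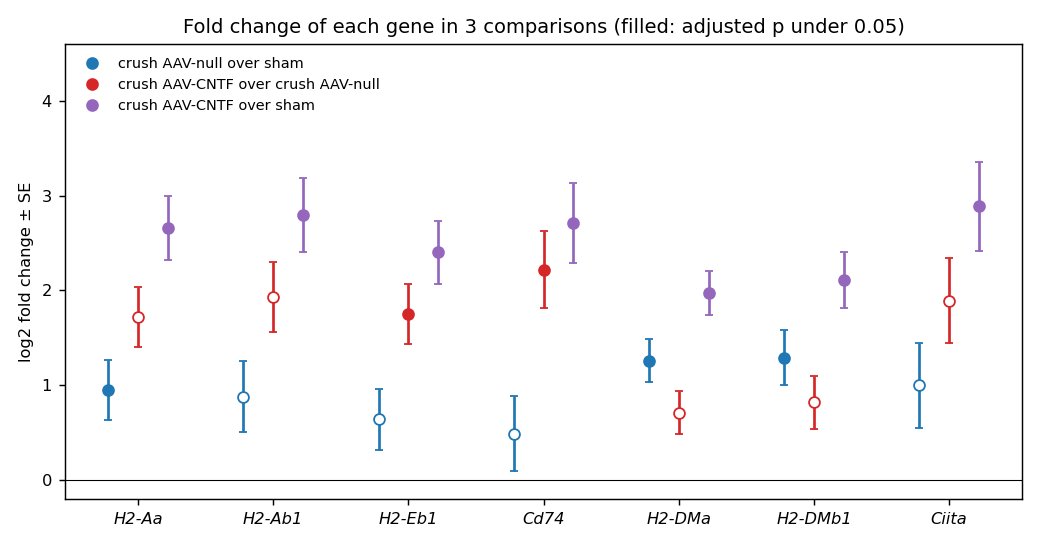
Log2 fold change of each class II gene with its SE (edgeR) in the 3 comparisons, which share groups; filled points have an adjusted p under 0.05. H2-Aa, H2-DMa and H2-DMb1 pass after crush alone (0.95, 1.26 and 1.29), Cd74 and H2-Eb1 pass under AAV-CNTF (2.22 and 1.75), and all 7 pass between crush AAV-CNTF and sham, with Ciita listed only through the AAV-CNTF group.

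The calls under AAV-CNTF rested on single libraries. Without AAV-CNTF replicate 6, 5 of the 7 passed (all but the H2-DM genes), and 41 of all genes did. Without AAV-CNTF replicate 3, 4 passed, without replicate 5, 1 passed (Cd74), and without replicate 2 or replicate 4, 0 passed. Without any one of AAV-null replicates 2, 3, 4, 5 or 6, 0 passed. Over these fits the number of all genes that passed ran from 1 to 41. Fold changes moved less than calls: that of Cd74 lay between 1.54 and 2.47 and that of H2-Aa between 1.34 and 1.95 on the log2 scale, lowest without AAV-CNTF replicate 4 and highest without replicate 6. DESeq2's Wald test called 5 of the 7 higher, where 0.387% of all genes were. The replicate number as a block left 1 of the 7, against 0.0986% of all genes. None of the 7 passed with limma-voom and sample quality weights or with limma on log2 FPKM, where 0.0211% of all genes were higher, or with only the 10 crush libraries fitted, where 0.0071% were. For this pair of groups the authors' deposited table gave 4 of the 7 an adjusted p under 0.05, H2-Aa at 0.0085, H2-Eb1 at 0.0119, Ciita at 0.0224 and Cd74 at 0.0404, where 0.415% of genes were higher at that level.

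**Figure D4:**
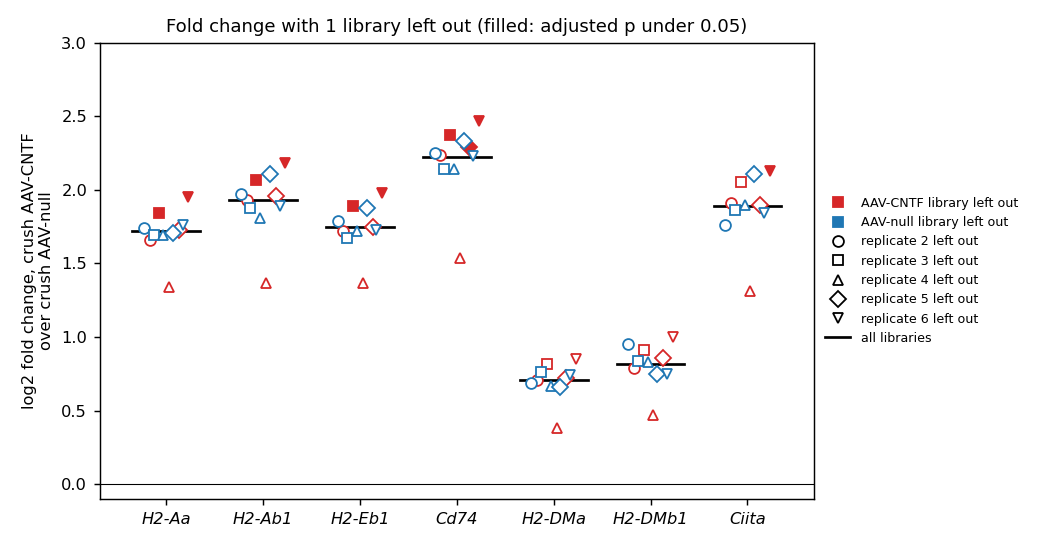
Log2 fold change of each class II gene, crush AAV-CNTF over crush AAV-null, with each library left out in turn; red points leave out an AAV-CNTF library, blue points an AAV-null library, shapes give its replicate number, filled points have an edgeR adjusted p under 0.05 and the line is the value with all libraries. Leaving out AAV-CNTF replicate 4 gives the lowest value for each gene (1.54 for Cd74), and every value stays above 0.

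Ranked by p over all genes in this comparison, H2-Eb1 was at place 7, Cd74 at 8, H2-Aa at 9, H2-Ab1 at 12, Ciita at 47, H2-DMa at 216 and H2-DMb1 at 301. The 5 other genes nearest to them in rank were Rhoj, C3, Lck, H2-Q6 and Cxcl9. For C3, the central complement component, the log2 fold change was 1.02 ± 0.19 (SE; edgeR, adjusted p = 0.0516), and for H2-Q6, a class I gene with near-identical copies, 2.32 ± 0.45 (SE; edgeR, adjusted p = 0.0531). Cxcl9, a chemokine induced by interferon gamma that draws T cells, averaged 0.955 ± 0.879 CPM with AAV-null and 158 ± 276 CPM with AAV-CNTF (SD, n = 5 each; edgeR adjusted p = 0.0368). Lck, a kinase of the T cell receptor, went from 0.0722 ± 0.161 to 4.23 ± 1.85 CPM (SD, n = 5 each; edgeR adjusted p = 0.0528). Lck reached FPKM 1 in 5 of 5 AAV-CNTF, 0 of 5 crush AAV-null and 3 of 5 sham libraries, and Cxcl9 in 4, 3 and 1. Both were listed only through the AAV-CNTF group, so a higher value there was in part a condition of being listed.

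No single marker of T and natural killer cells passed by edgeR. The median of their summed level was highest with AAV-CNTF, and those libraries overlapped sham. Of the list of 12, 6 were tested, 5 had an unadjusted p under 0.05, DESeq2 called 1, and the median log2 fold change was 1.67, with Lck and Nkg7 listed only through the AAV-CNTF group. Cd3d, Cd8a, Klrb1c, Gzma, Gzmb and Ifng of the list were not among the listed genes. The level summed over the 6 was 54.6, 26.0, 63.8, 21.4 and 19.5 CPM in AAV-CNTF replicates 2 to 6, against 5.87 to 15.5 CPM with AAV-null and 10.3 to 24.5 CPM in sham. Every AAV-CNTF library was above every AAV-null library in this sum, which holds Lck and Nkg7. Summed without them, the other 4 genes stood at 44.3, 20.6, 50.5, 15.1 and 17.5 CPM in AAV-CNTF replicates 2 to 6. With AAV-null they stood at 5.31 to 15.5 CPM. In sham they stood at 7.06 to 20.8 CPM, and AAV-CNTF replicates 3, 5 and 6 lay within this sham range. AAV-CNTF replicate 5 was then the lowest of its group and fell within the AAV-null range. Replicate 6, the library without higher class II, lay above that range. The part of the T and natural killer cell genes in the class II result was not tested. The phagocyte list overlapped between the groups, at 2304 to 3382 CPM with AAV-CNTF and 2606 to 3835 CPM with AAV-null, with 5 of 10 genes at an unadjusted p under 0.05, 1 of them higher. Of the 10 microglia genes 3 had an unadjusted p under 0.05, 0 of them higher. Of 6 monocyte genes 0 passed by edgeR or DESeq2 and 4 had an unadjusted p under 0.05, all higher, with a median log2 fold change of 0.92. Ly6c2, a surface protein of inflammatory monocytes, averaged 12.6 ± 15.5 CPM with AAV-CNTF and 2.41 ± 1.42 CPM with AAV-null (SD, n = 5 each; edgeR adjusted p = 0.289). Overlap between the groups was also seen in the leukocyte list, at 686 to 1048 CPM with AAV-CNTF and 798 to 1028 CPM with AAV-null. The dendritic cell list, with 8 of 12 genes tested and 0 past the threshold by edgeR or DESeq2 (3 at an unadjusted p under 0.05), summed to 365 to 523 CPM with AAV-CNTF and 328 to 443 CPM with AAV-null. Most of that sum was Fscn1, an actin bundling protein, at 273 ± 43.0 CPM with AAV-CNTF and 291 ± 33.1 CPM with AAV-null (SD, n = 5 each). The median log2 fold change of the 8 was 0.76, and 0.60 without the 3 listed only through the AAV-CNTF group. Itgax, which encodes CD11c, averaged 50.1 ± 13.4 and 28.0 ± 8.99 CPM (SD, n = 5 each; edgeR adjusted p = 0.229). Xcr1, a receptor of cross-presenting dendritic cells, averaged 4.89 and 0.356 CPM, and Clec9a, another of their receptors, 4.52 and 0.609 CPM, and both are among those 3. Their part in the class II values was not tested. The B and plasma cell list summed to 141 to 507 and 216 to 536 CPM, and its B cell genes Cd79b, Ms4a1 and Pax5 were not among the listed genes. The chains over phagocyte genes stood at 0.166, 0.115, 0.425, 0.233 and 0.0512 in AAV-CNTF replicates 2 to 6, so replicates 2 to 5 were above the AAV-null range and replicate 6 inside it.

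The third comparison sets crush with AAV-CNTF against sham with AAV-null, so injury and CNTF differ together, and it shares its groups with the other 2. All 7 genes were higher, where 17% of all genes tested were higher and 14.3% lower. For the 6 listed through every group, all 6 higher with a median log2 fold change of 2.53, values ran from 1.97 ± 0.23 for H2-DMa (SE; edgeR, adjusted p = 1.63e-06) to 2.80 ± 0.39 for H2-Ab1 (SE). The value for Ciita, listed only through the AAV-CNTF group, was 2.89 ± 0.47 on the log2 scale (SE; edgeR, adjusted p = 6.75e-05), and its call here is no support. H2-Ab1 was 6.98-fold, Cd74 6.53-fold, H2-Aa 6.34-fold, H2-Eb1 5.27-fold and H2-DMb1 4.32-fold higher than in sham. In 6 of the 7 all AAV-CNTF libraries lay above all sham libraries, as in 11.9% of all genes, and the exception was Cd74, where AAV-CNTF replicate 6 (187 CPM) lay below sham replicate 5 (211 CPM). All 7 passed with any 1 library left out. The authors' deposited table also had all 7 higher with an adjusted p under 0.05, as it had 16.5% of genes.

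Within groups the 7 genes varied together. For each of the 21 pairs log2 CPM was correlated over the 15 libraries as deviations from the group means, with a two-sided permutation within groups. Pearson's r ran from 0.69 to 0.96 and passed Benjamini-Hochberg adjustment in 18 pairs (permutation adjusted p 0.00063 to 0.0802), and Spearman's rho ran from 0.27 to 0.92 and passed in 5. Cd74 and H2-Eb1 were the closest pair, with r = 0.96 and rho = 0.92 (permutation p = 3e-05 and 4e-05, adjusted p = 0.00063 and 0.00084). Much of this rested on AAV-CNTF replicates 4 and 6, which were farthest from the median: without them r ran from -0.12 to 0.89 and 4 pairs passed. Cd74 with H2-Eb1 kept r = 0.89, H2-Aa with H2-Eb1 went from 0.94 to 0.81, and H2-Aa with Cd74 from 0.93 to 0.76. For the 6 pairs with Ciita r was -0.12 to 0.38 without those libraries, highest with H2-Ab1.

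Over all 13949 other genes with a mean of at least 1 CPM, the 5 whose log2 CPM was most like the mean of H2-Aa, H2-Ab1, H2-Eb1 and Cd74 across the 15 libraries included Tmem131 (r = 0.927), Plbd1 (0.92), Slamf7 (0.917) and H2-K1 (0.916). These values follow the groups as well as the libraries. With group means removed the 5 closest were Sema4a (0.901), Fgl2 (0.895), Prpf39 (0.865), Ly6a (0.857) and Itga4 (0.848). This likeness lies within groups and need not hold between them. Prpf39 was lower with AAV-CNTF (21.6 to 29.7 CPM) than in sham (39.6 to 48.0 CPM), opposite to the class II genes. The libraries share depth and tissue makeup, and r serves here as a measure of likeness only. Without the 2 libraries farthest from the median, r was 0.71 for Sema4a, 0.56 for Fgl2, 0.77 for Prpf39, 0.53 for Ly6a and 0.75 for Itga4.

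The genes that regulate Ciita or act at class II promoters, 22 in a list, did not move as one. After crush alone 5 rose and 2 fell, with a median log2 fold change of 0.09. Irf8, a transcription factor of macrophages and dendritic cells, averaged 22.3 ± 3.83 CPM with sham surgery and 69.6 ± 12.2 CPM with crush (SD, n = 5 each), and its log2 fold change was 1.64 ± 0.16 (SE; edgeR, adjusted p = 1.2e-07). Spi1, which encodes the myeloid factor PU.1, rose by 1.85 ± 0.19 and Ifngr2, a chain of the interferon gamma receptor, by 1.28 ± 0.13 on the log2 scale (SE; edgeR, adjusted p = 3.76e-07 and 3.49e-07). Jak2, a kinase of that receptor, changed by -0.47 ± 0.10, and Kat2b, a histone acetylase, by -0.61 ± 0.14 (SE; edgeR, adjusted p = 0.00179 and 0.00229). Under AAV-CNTF 0 of the 22 passed by edgeR and 1 by DESeq2. An unadjusted p under 0.05 was seen for 5, all higher, and the median was 0.12. Against sham 10 were higher and 1 lower.

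Genes of class II processing and peptide loading, 19 tested of a list of 21, included 10 that rose and 1 that fell after crush, with a median log2 fold change of 1.22, and Ctss of this list is also in the phagocyte list. Ctsd, a lysosomal protease, went from 623 ± 136 to 5810 ± 996 CPM (SD, n = 5 each). Ctsz and Ctsb, cathepsins of the same compartment, rose by 2.29 ± 0.14 and 2.22 ± 0.15 on the log2 scale (SE; edgeR, adjusted p = 3.56e-10 and 8.36e-10). March8, a ubiquitin ligase that sends class II molecules to degradation, was the 1 that fell, from 158.5 ± 12.99 to 102 ± 11.5 CPM (SD, n = 5 each; edgeR adjusted p = 0.000111). Under AAV-CNTF 0 of the 19 passed by edgeR, 6 had an unadjusted p under 0.05 (1 of them higher), DESeq2 called 1 lower and the median was -0.03, while the medians of all genes and of the 7 class II genes were -0.003 and 1.75.

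Of 11 costimulation and T cell contact genes tested (14 listed), 7 rose after crush with a median log2 fold change of 1.10. Under AAV-CNTF 0 passed by edgeR or DESeq2, 4 had an unadjusted p under 0.05 (3 of them higher) and the median was 0.26. Vsir, an inhibitory ligand, Icam1, an adhesion ligand, and Cd83, a surface protein of mature dendritic cells that stabilises class II, had the smallest p after crush, with log2 fold changes of 1.10 ± 0.11, 1.41 ± 0.18 and 1.54 ± 0.22 (SE; edgeR, adjusted p = 1.74e-07, 5.1e-06 and 2.08e-05). Cd48, Cd80 and Havcr2 rose with larger log2 fold changes of 2.26, 2.15 and 1.91. Of 18 tested neighbours in the class II region of chromosome 17 (25 listed), 2 rose after crush, Notch4 and Gpsm3, and 2 fell, Col11a2 and Rnf5. Under AAV-CNTF 0 of these neighbours passed by edgeR and 1 by DESeq2, and the median was 0.07. An unadjusted p under 0.05 was seen for 5, of which 4 were higher. These 4 were Tap1, Tap2, Psmb8 and Psmb9, and Notch4 was lower.

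Targets of interferon gamma gave another pattern. Of 19 tested (20 listed) 1 rose after crush, B2m, and the median log2 fold change was -0.03. Under AAV-CNTF 1 passed by edgeR, Cxcl9, and 9 by DESeq2, 18 had an unadjusted p under 0.05, all higher, and the median was 1.63, beside 1.75 for the class II genes. Without Cxcl9, the 1 of the list that was listed only through the AAV-CNTF group, the median of the other 18 was 1.61. Against sham 17 of the 19 were higher with crush and AAV-CNTF and 0 lower. Among them were B2m and Tap1, the peptide transporter gene, which is also in the neighbour list. Cxcl9 was another of the 17, and its call there is no support, because it was listed only through the AAV-CNTF group. The list summed to 3453, 2418, 8685, 2561 and 2191 CPM in AAV-CNTF replicates 2 to 6, of which B2m holds the largest share, against 1499.6 to 1810.1 CPM with AAV-null. Replicate 4 was the highest and replicate 6 the lowest, as for the class II genes, but replicate 6 lay above the AAV-null range of this list.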

How the data were processed

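RNA of whole optic nerve was sequenced in 15 libraries. Per the labels' protocols 2 library kits are named, without saying which library each served. The submitters' processing notes name Trimmomatic 0.32, STAR 2.5.3a, RSEM 1.2.31, R 3.2.3, DESeq2 and the genome build mm10. The authors deposited 1 table. Per the file headers it gives an expected count and an FPKM per gene and library. The authors also deposited a log2 fold change and an adjusted p-value for each pair of groups. In some group, each of the 14237 genes reaches FPKM 1 in 4 or more libraries, so low genes are not analysed here and totals cover the listed genes.

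Expected counts (13.7% to 18.3% per library not whole) were rounded and fitted in R 4.3.3 with edgeR 4.0.16: TMM, filterByExpr, 1 mean per group over 15 libraries, 12 residual degrees of freedom, quasi-likelihood test, Benjamini-Hochberg adjustment over 14194 genes, threshold 0.05. CPM uses TMM-scaled library sizes. The biological coefficient of variation was 0.37, so the spread between libraries and not depth sets the precision. The fit was tested on simulated data with less spread between libraries than here, equal in all groups. That test therefore does not cover the wide spread of the AAV-CNTF group. Alternatives were RLE and upper quartile scaling, no filter, a mean of at least 1 CPM, the replicate number as a block, only the 10 libraries compared, each library left out, limma 3.58.1 (voom with sample quality weights, and log2 of FPKM plus 0.1 or 1) and DESeq2 1.42.0. Correlations used 100000 permutations within groups. Pairing by replicate number was checked: deviations from group means correlated at -0.05 to 0.11 over 15 same-number pairs, and libraries were not treated as paired. No 2 libraries of a group agreed within sampling noise.

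The members and gene lists were chosen with earlier results of these data known, so no list was tested and no p was adjusted over a list. Named genes were the 7, up to 3 per list and direction past the threshold by p, the 5 most like them, and the 5 nearest in rank under AAV-CNTF. Others named where a count was small were chosen after their values were seen. Some genes that this rule or a list selects are not reported here.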

Additional observations from a re-analysis of the deposited data

Results flagged for a closer look

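Of 33 sets of 5 libraries checked for a library far from the others (Dixon's critical value 0.71), 1 stood out, and chance alone gives about 1 in 20. Cd74 in sham replicate 5 was at 211 CPM, while the next sham library was at 114 CPM and the lowest at 91.3 CPM, a gap of 0.813 of the group's range. H2-Aa (28.5 CPM), H2-Eb1 (35.9 CPM) and H2-DMa (18.6 CPM) were also highest in that library among sham nerves. H2-Ab1 and H2-DMb1 were not, and Ciita (1.39 CPM) was lowest there. The skeletal muscle list summed to 198 CPM in it, against 18.7 to 37.9 CPM in the other sham libraries. Its part in the Cd74 value was not tested.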

How the results depend on the processing

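All 7 genes kept a positive log2 fold change in all 3 comparisons under every alternative run, and all 7 calls against sham with AAV-CNTF held throughout. For crush against sham 3 of 7 passed, 5 with only the 10 libraries compared, and 2 to 3 with a library left out. For AAV-CNTF against AAV-null 8 genes passed, 2 of them class II. The counts were 78 and 5 with DESeq2, 5 and 0 with voom, 3 and 0 with limma on log2(FPKM + 0.1) and also on log2(FPKM + 1), and 1 and 0 with only the 10 libraries. With a library left out they ran from 1 to 41 and from 0 to 5. The replicate block gave 16 and 1, and replicate numbers showed no pairing. The FPKM fits with 0.1 added moved the median of all genes by 0.18 between crush and sham and called 2341 higher and 826 lower, against 2087 and 1825, and for crush with AAV-CNTF against sham 2565 and 966, against 2406 and 2031. The crush against sham difference of the log2 ratio of H2-DM to phagocyte genes was -1.04 in FPKM and -0.68 in CPM. Of 18 correlated pairs 4 passed without AAV-CNTF replicates 4 and 6. The causes were not tested. Ciita, with 26 to 57 counts in sham libraries, had the fewest of the 7.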
